A study of Xenopus tropicalis with 12 samples.

Results

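The genes avp, trh, npy, cck and cartpt code for precursors of neuropeptides of the hypothalamus. They were found by gene name in the annotation of the deposited tables, ignoring case. Each name sat on 1 gene model that carried no other gene name, so 5 of the 33875 gene models of the series are described here. All 5 passed the filter on low counts.

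The series followed the brain of the frog Xenopus tropicalis through metamorphosis, the thyroid hormone-driven change of a tadpole into a juvenile frog. The libraries come from RNA of a middle block of the brain, dissected to include hypothalamus, preoptic area and thalamus. The animals were wild type, the labels name no treatment, and they were taken at 4 Nieuwkoop-Faber (NF) stages: NF50 (premetamorphosis), NF56 (prometamorphosis), NF62 (the climax) and NF66 (metamorphosis complete). There were 3 libraries for each stage, called biological replicates in the labels, with the numbers 1, 3 and 4 for NF50 and 1 to 3 for NF56, NF62 and NF66. The sources used here do not say how many brains went into a library, and p-values measure the spread among these libraries.

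A neuropeptide is made as a longer precursor that enters the regulated secretory pathway of a neuron. Proprotein convertases cut the precursor at basic residues, carboxypeptidases trim the ends, and an amidating enzyme finishes many of the peptides before dense-core vesicles release them. In the hypothalamus some of these peptides leave the brain through the pituitary, and others act on circuits that set feeding, water balance and the stress response. The avp gene codes for the precursor of arginine vasotocin in amphibians, the hormone that vasopressin corresponds to in mammals. The trh gene codes for the precursor of thyrotropin-releasing hormone, which acts on pituitary cells and in amphibians releases prolactin and melanocyte-stimulating hormone. The npy gene codes for neuropeptide Y, which stimulates feeding in mammals and inhibits the melanotrope cells of the frog pituitary. The genes cck and cartpt code for the precursors of cholecystokinin and of the cocaine- and amphetamine-regulated transcript peptide, which reduce feeding in mammals.

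Library totals ran from 12046529 (NF56 replicate 3) to 31029733 (NF66 replicate 3) expected counts. Levels of a gene across libraries are given as CPM, a count's share of the library total, with library sizes scaled by TMM factors. Levels of different genes are compared only in TPM, the share of transcripts, which the authors' tables give per length of the model. Changes between stages are log2 fold changes ± a standard error (SE), from a quasi-likelihood fit of edgeR to the 12 libraries. The SE was derived as the absolute log2 fold change divided by the square root of the F statistic of its test. A positive log2 fold change means higher at the later stage. The words rose and fell are kept for a Benjamini-Hochberg adjusted p below 0.05, adjusted over the 19584 models tested. The libraries of a stage were not interchangeable in all respects. After the stage means were removed, 54.2% of the remaining variance lay along a leading axis. On it NF62 replicate 2 (-54.2) and NF66 replicate 3 (49.8) were farthest apart. Libraries numbered 2 lay at -54.2 to -33.4 on this axis and those numbered 3 at 29.1 to 49.8. Libraries numbered 1 lay at -9 to 25, and NF50 replicate 4 at -23.9. The main fit takes no account of the replicate number. Results are given with and without NF62 replicate 2 and NF66 replicate 3 where that changes a call.

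Markers of the labelled tissue were present at every stage. The 6 markers of the hypothalamus and preoptic area summed to 191 to 250 CPM at NF50, 180 to 187 CPM at NF56, 224 to 248 CPM at NF62 and 167 to 259 CPM at NF66. Most of that sum was otp, a transcription factor gene of neurosecretory neurons, whereas sim1 and rax averaged below 1 CPM at each stage. Of the 5 thalamus markers, 4 were measured, and they summed to 813 to 863 CPM at NF50, 947 to 1033 CPM at NF56, 720 to 895 CPM at NF62 and 650 to 813 CPM at NF66. The part of these regional marker levels in the changes of the 5 genes was not tested. The summed level of the 8 measured of 10 pituitary markers was lower at the later stages, with 109 to 168 CPM at NF50, 112 to 120 CPM at NF56, 75.0 to 112 CPM at NF62 and 26.8 to 70.5 CPM at NF66. The 11 measured of 12 markers of neurons, of which eno2 was near 0, summed to 5967 to 6124 CPM at NF50, 7162 to 7469 CPM at NF56, 7606 to 8272 CPM at NF62 and 7213 to 7672 CPM at NF66. These markers did not move together. From NF50 to NF56 the mean of stmn2 went from 1880 to 2445 CPM and that of gap43 from 596 to 909 CPM. The means of nefl (255 to 192 CPM) and nefm (331 to 267 CPM) were lower at NF56. Midbrain markers (5 of 5 measured) summed to 251 to 263 CPM at NF50, 251 to 286 CPM at NF56, 161 to 184 CPM at NF62 and 141 to 163 CPM at NF66. In bulk tissue, fewer cells of a type and less RNA per cell cannot be told apart, and this holds for every result given here.

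All 5 genes differed among the 4 stages, against 39.6% of all models tested, but they did so in different ways. The vasotocin gene avp rose steeply up to the climax, cck fell slightly and then rose at the climax, and cartpt fell up to the climax. The genes trh and npy moved within a narrower range and were highest at NF66. The adjusted p of the test for any difference among stages was 1.9e-05 for avp, 2.9e-05 for cck, 0.00034 for cartpt, 0.0022 for npy and 0.003 for trh.

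**Figure D1:**
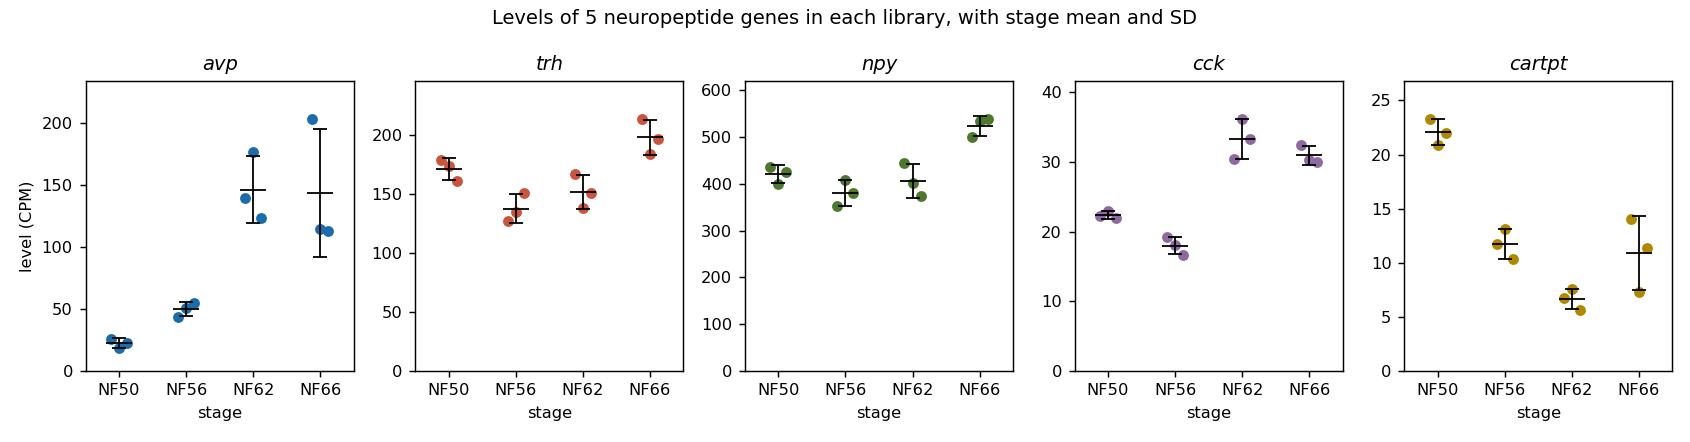
Level of avp, trh, npy, cck and cartpt in CPM (vertical axes from 0, a scale for each gene) in each library at NF50, NF56, NF62 and NF66. Each point is a library, the wide bar is the stage mean and the error bar the SD over 3 libraries. The avp libraries lie between 113 and 203 CPM at NF66 and between 18.4 and 25.9 CPM at NF50, and the cartpt libraries lie between 5.65 and 7.54 CPM at NF62 and between 20.9 and 23.3 CPM at NF50.

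Vasotocin transcripts showed the widest range. The avp model (XLOC_013777, 698 bases) was at 25.9, 18.4 and 22.5 CPM in NF50 replicates 1, 3 and 4, and at 43.4, 50.6 and 54.8 CPM in NF56 replicates 1 to 3. It reached 139, 176 and 123 CPM in NF62 replicates 1 to 3 and 203, 114 and 113 CPM in NF66 replicates 1 to 3. No NF56 library overlapped with NF50 and no NF62 library overlapped with NF56, while the NF66 libraries lay on both sides of those of NF62. The stage means were 22.3 ± 3.79, 49.6 ± 5.80, 146 ± 27.2 and 143 ± 51.7 CPM from NF50 to NF66 (SD, n = 3 each). By edgeR, avp rose at NF56 against NF50 (log2 fold change 1.16 ± 0.24 SE, adjusted p = 0.0087). It rose again at NF62 against NF56 (1.56 ± 0.23, adjusted p = 0.001). Between NF66 and NF62 its log2 fold change was -0.03 ± 0.23 (adjusted p = 0.98). Over the whole span, NF66 against NF50, avp was 6.43-fold higher (2.69 ± 0.24, adjusted p = 1e-05).

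The rises of avp held with any library left out, with log2 fold changes of 1.01 to 1.28 at NF56 against NF50, 1.41 to 1.67 at NF62 against NF56 and 2.35 to 2.83 at NF66 against NF50. The value between NF66 and NF62 depended on single libraries, at -0.37 to 0.12, and was 0.11 without NF66 replicate 2, 0.11 without NF66 replicate 3 and 0.12 without NF62 replicate 2. Scaled to the summed neuron markers in place of the library size, avp was still higher at NF56 than at NF50 (0.89) and at NF62 than at NF56 (1.44). The medians of all models were then -0.275 and -0.118.

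At NF66 the avp libraries spread more than at any other stage, with a coefficient of variation of 36.2%. NF66 replicate 1 held 203 CPM of avp, and the other two NF66 libraries held 114 and 113 CPM. The same library had the highest otp of the NF66 libraries, 228 CPM against 130 and 156 CPM in replicates 2 and 3. It was also the highest NF66 library for oxt, at 209 CPM against 124 and 100 CPM, and for cartpt, at 14 CPM against 7.24 and 11.4 CPM. The same was true of trh, at 214 CPM against 184 and 197 CPM, and of cck, at 32.5 CPM against 30.3 and 30.0 CPM. Other genes went the other way in that library. It was the lowest NF66 library for npy, at 500 CPM against 534 and 539 CPM. The same held for lhx6, which is on the marker list of otp, at 7.76 CPM against 10.9 and 29.0 CPM. The part that the make-up of the dissected tissue had in these levels was not tested.

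The gene oxt, which codes for the precursor of mesotocin in amphibians, lies next to avp in the RefSeq annotation of assembly UCB_Xtro_10.0. It was at 52.9, 51.8 and 61.1 CPM in the NF50 libraries, 82.6, 91.7 and 90.2 CPM in the NF56 libraries, 114, 116 and 99.1 CPM in the NF62 libraries, and 209, 124 and 100 CPM in the NF66 libraries. It rose at NF66 against NF50 (1.39 ± 0.22, adjusted p = 0.00045 by edgeR). At NF56 against NF50 its libraries did not overlap, but the adjusted p was 0.059 (0.67 ± 0.21). The oxt change over the whole span was smaller than that of avp in value, although the difference between the genes was not tested. The sources used here do not say whether the counting used strand.

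Transcripts of thyrotropin-releasing hormone were lowest at NF56 and highest at NF66. The trh model (XLOC_023272, 4251 bases) was at 179, 174 and 161 CPM in NF50 replicates 1, 3 and 4, and at 127, 135 and 151 CPM in the NF56 libraries. It was at 167, 138 and 151 CPM in the NF62 libraries and at 214, 184 and 197 CPM in the NF66 libraries. All NF66 libraries were above all others, and all NF56 libraries were below those of NF50. The NF62 libraries overlapped with both NF56 and NF50. The stage means were 171 ± 9.03, 138 ± 12.2, 152 ± 14.5 and 198 ± 15 CPM from NF50 to NF66 (SD, n = 3 each).

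By edgeR, trh fell at NF56 against NF50 (log2 fold change -0.31 ± 0.09, adjusted p = 0.037). On log2(TPM + 1) values, to which no TMM factors were applied, it was 0.07 higher. With those values the median change of all models in this comparison was 0.32. Both measures are relative to the other transcripts of a library. The edgeR call ended without any 1 of NF50 replicates 1, 3 or 4, NF56 replicates 1 or 2, or NF62 replicate 3, with log2 fold changes of -0.38 to -0.26 over all 12 omissions. At NF62 against NF56 its log2 fold change was 0.14 ± 0.09 (adjusted p = 0.33). It rose at NF66 against NF62 (0.39 ± 0.09, adjusted p = 0.042). That call was close to the threshold and ended without any 1 library other than NF56 replicate 3, although the log2 fold change stayed at 0.32 to 0.46. It also ended without both libraries at the ends of the within-stage axis (0.33, adjusted p = 0.086). From the start to the end, NF66 against NF50, the log2 fold change of trh was 0.21 ± 0.09 (adjusted p = 0.083), and it was -0.09 when scaled to the neuron markers. With that scaling the median of all models was -0.28.

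Neuropeptide Y transcripts were the most abundant of the 5 at NF50 and NF56 in TPM and changed little before the end of metamorphosis. The npy model (XLOC_032670, 3041 bases) was at 436, 400 and 426 CPM in NF50 replicates 1, 3 and 4, 352, 408 and 381 CPM in the NF56 libraries and 445, 402 and 373 CPM in the NF62 libraries. The NF66 libraries held 500, 534 and 539 CPM and lay above all others. The earlier 3 stages overlapped with each other. The stage means were 420 ± 18.6, 380 ± 27.8, 407 ± 36.0 and 524 ± 21.4 CPM from NF50 to NF66 (SD, n = 3 each).

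By edgeR, npy rose at NF66 against NF62 (log2 fold change 0.37 ± 0.07, adjusted p = 0.028) and at NF66 against NF50 (0.32 ± 0.07, adjusted p = 0.0063). The earlier steps gave -0.14 ± 0.07 at NF56 against NF50 (adjusted p = 0.24) and 0.10 ± 0.07 at NF62 against NF56 (adjusted p = 0.45). The call at NF66 against NF62 ended without NF50 replicate 1, NF62 replicates 2 or 3, or NF66 replicates 2 or 3, at 0.31 to 0.44 over all 12 omissions, and without both ends of the within-stage axis (0.34). Relative to the summed neuron markers, npy was 0.02 higher at NF66 than at NF50 (adjusted p = 0.89), and 0.42 lower at NF56 than at NF50 (log2 fold change -0.42, adjusted p = 0.0032). The summed neuron markers were higher in every NF56 library than in any NF50 library, with 4 of the 10 tested called higher and 1 lower. Relative to these markers the median of all models was -0.275 at NF56 against NF50 and -0.28 at NF66 against NF50. The part of the neuron markers in the npy result was not tested further.

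Cholecystokinin transcripts were lowest at NF56 and rose at the climax. The cck model (XLOC_003287, 619 bases) was at 22.3, 23.0 and 21.9 CPM in NF50 replicates 1, 3 and 4, and at 19.2, 18.1 and 16.7 CPM in the NF56 libraries. It was at 30.4, 36.2 and 33.3 CPM in the NF62 libraries and at 32.5, 30.3 and 30.0 CPM in the NF66 libraries. The order of the stages was NF56, NF50, NF66 and NF62 from low to high, and only the neighbours NF66 and NF62 overlapped. The stage means were 22.4 ± 0.577, 18.0 ± 1.26, 33.3 ± 2.89 and 30.9 ± 1.34 CPM from NF50 to NF66 (SD, n = 3 each).

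By edgeR, cck rose at NF62 against NF56 (log2 fold change 0.89 ± 0.08, adjusted p = 6.8e-05), and this held with any library left out (0.82 to 0.95). Between NF66 and NF62 the value was -0.11 ± 0.08 (adjusted p = 0.61). The cck gene fell at NF56 against NF50 (-0.31 ± 0.08, adjusted p = 0.026). On log2(TPM + 1) values without TMM factors it was 0.06 higher, where the median of all models was 0.32. The edgeR call ended without any 1 of NF50 replicates 1, 3 or 4 or NF56 replicates 2 or 3, at -0.36 to -0.27 over all 12 omissions. Over the whole span cck rose (NF66 against NF50, 0.46 ± 0.08, adjusted p = 0.00096). Scaled to the neuron markers, that value was 0.16 (adjusted p = 0.079), where the median of all models was -0.28.

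Transcripts of cartpt fell up to the climax. The cartpt model (XLOC_011000, 2020 bases) was at 23.3, 20.9 and 22.0 CPM in NF50 replicates 1, 3 and 4, and at 11.7, 13.1 and 10.3 CPM in the NF56 libraries. It was at 6.69, 7.54 and 5.65 CPM in the NF62 libraries and at 14, 7.24 and 11.4 CPM in the NF66 libraries. No libraries overlapped among NF50, NF56 and NF62, and the NF66 libraries overlapped with both NF62 and NF56. The stage means were 22.1 ± 1.22, 11.7 ± 1.41, 6.63 ± 0.948 and 10.9 ± 3.4 CPM from NF50 to NF66 (SD, n = 3 each). The values rest on 129 to 535 expected counts per library. Their total over the 12 libraries, 3432, was the lowest of the 5 genes, although in each NF50 library cck or avp had fewer counts.

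By edgeR, cartpt fell at NF56 against NF50 (log2 fold change -0.91 ± 0.20, adjusted p = 0.013) and at NF62 against NF56 (-0.82 ± 0.21, adjusted p = 0.019). It also fell over the whole span, NF66 against NF50 (-1.02 ± 0.20, adjusted p = 0.0022). At NF66 against NF62 the value was 0.71 ± 0.21 with an adjusted p of 0.095. Without NF66 replicate 2, the lowest NF66 library, it was 0.93 and passed (adjusted p = 0.03 by edgeR). The value also passed by DESeq2 with all libraries (0.72, adjusted p = 0.018) and by edgeR relative to the neuron markers (0.80, adjusted p = 0.047). Relative to these markers the median of all models was 0.084, against 0.002 in the main fit. The fall at NF56 against NF50 ended without NF56 replicate 1 (-0.91, adjusted p = 0.05) or 3 (-0.83, adjusted p = 0.051). The fall at NF62 against NF56 ended without NF56 replicate 1 or 2, or NF62 replicate 1 or 3, at -0.92 to -0.72 over all 12 omissions. On log2(TPM + 1) values without TMM factors, limma gave changes of the same sign that missed the threshold. They were -0.52 at NF56 against NF50, -0.80 at NF62 against NF56 and -0.69 at NF66 against NF50.

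Set against all models, the 5 genes differed in how unusual their changes were. At NF56 against NF50, avp rose and trh, cck and cartpt fell, which is 4 of 5 genes called, where 14.5% of all models were (6.51% higher and 7.96% lower). The libraries did not overlap for the same 4 genes, nor for 35.5% of all models. At NF62 against NF56, avp and cck rose and cartpt fell (3 of 5), where 18.9% of all models were called (9.95% higher and 8.97% lower) and 35.9% did not overlap. At NF66 against NF62, trh and npy rose (2 of 5), where 3.15% of all models were called (1.36% higher and 1.79% lower) and 19.5% did not overlap. At NF66 against NF50, avp, npy and cck rose and cartpt fell (4 of 5), where 36.7% of all models were called (17.9% higher and 18.8% lower). All 5 genes were without overlap in that comparison, as were 46.5% of all models. The size of the avp change exceeded that of 95.9% of models at NF56 against NF50, 98.5% at NF62 against NF56 and 98.7% at NF66 against NF50. For cartpt these shares were 92.9%, 92.6% and 87.9%, and 95.2% at NF66 against NF62. The cck change exceeded that of 93.8% of models at NF62 against NF56. The changes of trh and npy exceeded those of 32.5% and 22.9% of models at NF62 against NF56, and of 83.0% and 81.6% at NF66 against NF62. These comparisons share libraries of the middle stages, so their values are not independent of each other.

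**Figure D2:**
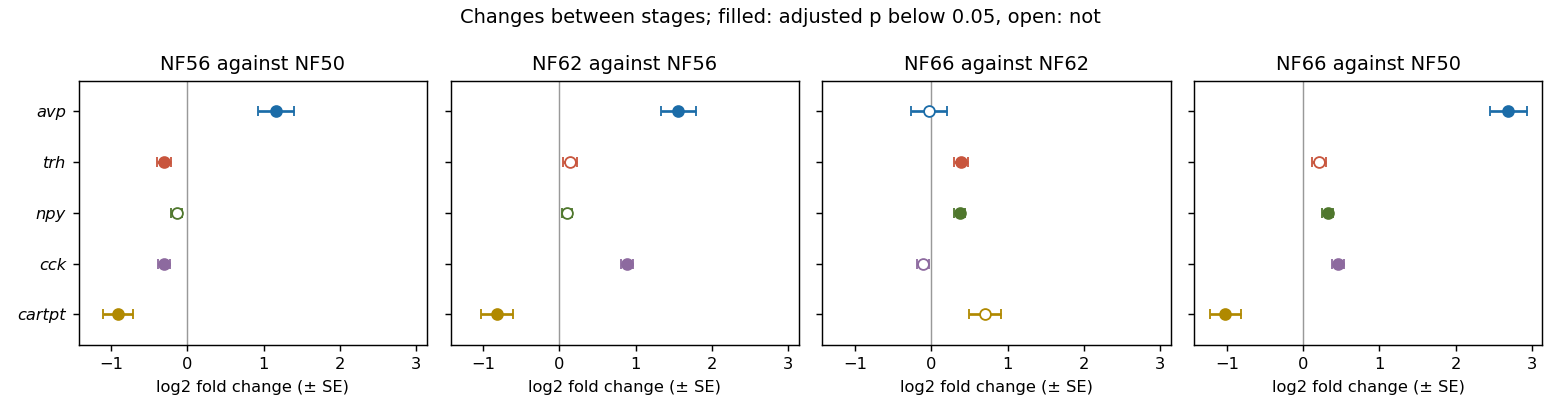
Log2 fold change (horizontal axis, with SE as bars) of avp, trh, npy, cck and cartpt in 4 comparisons of stages, from edgeR's fit to 12 libraries. Filled points had an adjusted p below 0.05 and open points did not. The avp points lie at 1.16 and 1.56 in the steps up to NF62 and at -0.03 in the last step, and the cartpt points lie at -0.91, -0.82 and 0.71 in the same steps.

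Compared per length, the order of the 5 genes changed through metamorphosis. These levels, and the shares and ranks below, rest on the lengths of the models, 698 bases for avp and 3041 bases for npy. Whether the models match the transcripts in length was not tested. At NF50 npy led with a mean of 329 TPM, followed by trh (96.5 TPM), cck (91.3 TPM), avp (78.7 TPM) and cartpt (26.2 TPM). The libraries of trh, cck and avp overlapped at that stage. At NF56 npy (381 TPM) and avp (226 TPM) stood apart from each other and from trh (98.7 TPM) and cck (92.9 TPM), which overlapped, and cartpt was at 17.6 TPM. At NF62 avp was first with 638 TPM, and all of its libraries (588 to 672 TPM) were above all npy libraries (337 to 458 TPM). At NF66 avp (631 ± 224 TPM) and npy (510 ± 62.7 TPM) overlapped, and cck (155 TPM) overlapped with trh (138 TPM).

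Within each library, avp took a growing share of the summed TPM of the 5 genes up to the climax. The share was 11.0 to 14.2% at NF50, 26.0 to 29.7% at NF56, 45.9 to 53.5% at NF62 and 37.6 to 52.3% at NF66. The share of npy was 52.4 to 53.9%, 45.4 to 48.1%, 26.8 to 32.6% and 28.3 to 39.6% at the same stages. The ratio of avp to cartpt TPM, which no scaling between libraries can alter, was 2.64 to 3.34 at NF50, 11.1 to 16.1 at NF56, 62.6 to 70.3 at NF62 and 29.8 to 47.2 at NF66. No pair of stages overlapped in that ratio. Other ratios did overlap between stages. The ratio of avp to npy was 1.43 to 2.0 at NF62 and 0.95 to 1.85 at NF66. That of cck to trh was 0.905 to 0.985 at NF50 and 0.801 to 1.09 at NF56. How often such ratios separate the stages over all models was not computed. Among the 19584 models tested, avp ranked 186 by mean TPM at NF62 and 1743 at NF50, whereas cartpt ranked 11257 at NF62 and 5579 at NF50. The gene npy ranked between 246 and 353 at all stages.

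**Figure D3:**
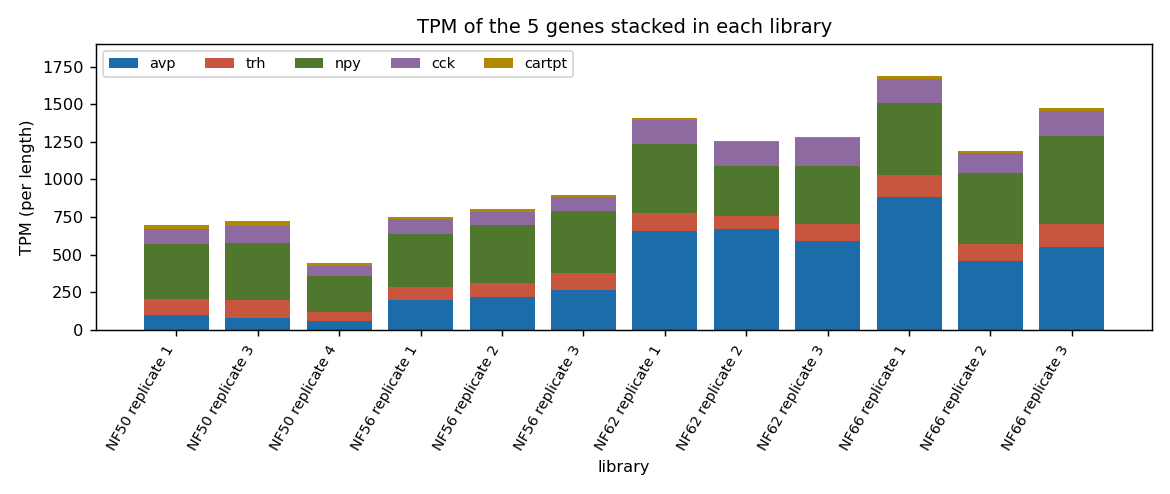
Deposited TPM of avp, trh, npy, cck and cartpt stacked for each of the 12 libraries (vertical axis in TPM from 0, libraries in order of stage and replicate). The summed TPM is 1188 to 1688 in the NF66 libraries and 443 to 723 in the NF50 libraries, and the avp segment is taller in every NF62 library than in any NF50 library. NF50 replicate 4 is low in all 5 genes.

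NF50 replicate 4 was low in TPM for all 5 genes, with a summed level of 443 TPM against 699 and 723 TPM in NF50 replicates 1 and 3. In that library the 10 highest models took 22.7% of all TPM, against 6.01 to 9.69% in the other libraries. Its CPM values for the 5 genes, scaled with TMM factors, differed by at most 0.09 on the log2 scale from the stage mean. The deviations within the other stages were as small for trh, npy and cck, at most 0.14 in any library. They were larger for avp (up to 0.56, in NF66 replicate 1) and for cartpt (0.53 in size, in NF66 replicate 2, which was low). The correlation of these deviations with the within-stage axis over the 12 libraries was 0.62 for trh, -0.51 for cck, -0.34 for avp, -0.12 for npy and -0.09 for cartpt, given as a description.

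Other genes with the closest pattern were sought among 8441 models that carried a single symbol and averaged at least 5 CPM. The measure was Pearson's r of log2 CPM over the 12 libraries, which share their stage differences, and it is a description only. For avp the nearest were epb41l3 (r = 0.992), a membrane skeleton protein gene, gfra4 (0.984), a receptor gene of the GDNF family, and c1qtnf4 (0.982), which codes for a secreted protein. Their own range was narrow beside that of avp: epb41l3 had stage means of 238, 267, 316 and 311 CPM from NF50 to NF66. For cck the nearest were scn4b (0.978), a sodium channel subunit gene, sstr3 (0.970), a somatostatin receptor gene, and pura (0.968). The scn4b means were 51.9, 43.4, 95.4 and 86.7 CPM, the same order of stages as cck. For cartpt the nearest were dut (0.947), which codes for an enzyme of nucleotide metabolism, kirrel2 (0.937), an adhesion protein gene, and comt (0.926), which codes for an enzyme that breaks down catecholamines. The dut means were 26.8, 21.6, 18.3 and 21.9 CPM.

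For trh and npy, genes of peptide processing were among the nearest. For trh they were fam102a (0.968), pcsk1 (0.942), the gene of a proprotein convertase, and lama5 (0.937), a laminin gene. For npy they were tbk1 (0.930), a kinase gene, pam (0.912), the gene of the peptide-amidating enzyme, and zcchc24 (0.911). The pcsk1 level was 165, 155 and 158 CPM in the NF50 libraries, 105, 119 and 120 CPM in the NF56 libraries, 144, 123 and 123 CPM in the NF62 libraries and 182, 180 and 171 CPM in the NF66 libraries. As with trh, all NF66 libraries were the highest and all NF56 libraries were below those of NF50. The pam level was 304, 318 and 288 CPM at NF50, 263, 267 and 288 CPM at NF56, 301, 291 and 280 CPM at NF62 and 393, 409 and 389 CPM at NF66. The NF66 libraries stood above all others, as they did for npy.

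**Figure D4:**
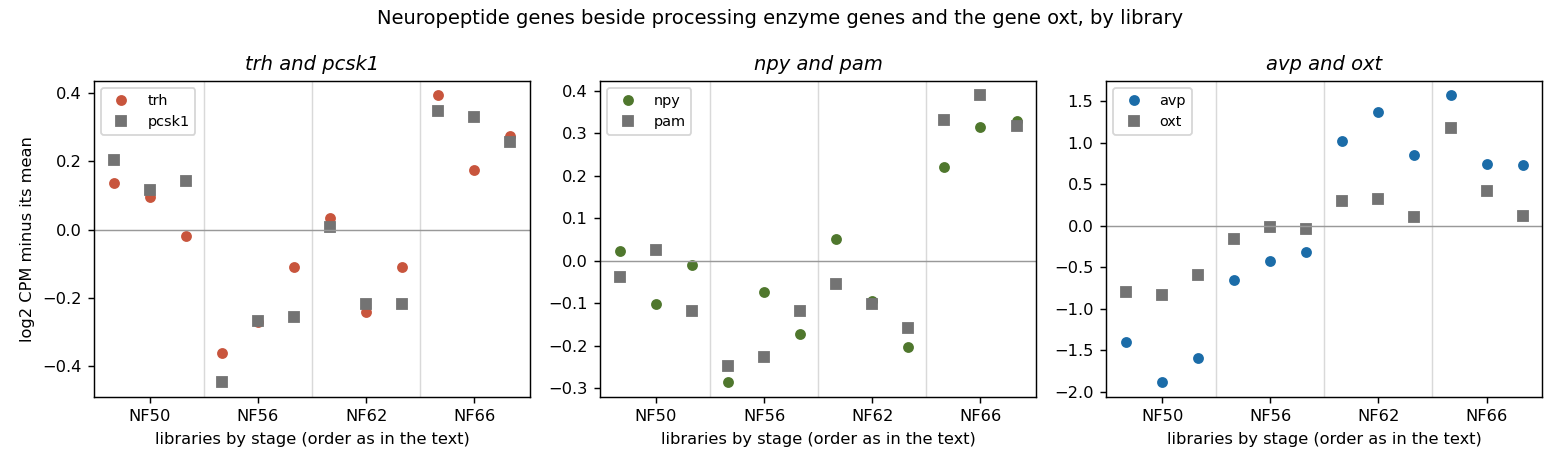
Log2 CPM minus the gene's mean over 12 libraries (vertical axis) for trh with pcsk1, npy with pam, and avp with oxt, with the libraries ordered by stage and, within a stage, by replicate number. Circles are the neuropeptide gene named first in each panel and squares the other gene. In the left and middle panels the NF66 libraries are highest for both genes, and in the right panel NF66 replicate 1 is highest for both avp and oxt.

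A list of 24 genes of peptide processing, storage and breakdown was followed as a group, of which 18 were tested. At NF56 against NF50, 1 of the 18 fell and none rose, and the median change was 0.06 where that of all models was -0.002 and 14.5% of them were called. The count of 1 was 2 without NF66 replicate 2 and 3 without NF66 replicate 3. The gene that fell was pcsk1 (-0.47 ± 0.07, adjusted p = 0.0021 by edgeR). On log2(TPM + 1) values without TMM factors its change was -0.09. At NF62 against NF56, 7 rose and 1 fell (median 0.20, all models -0.008), where 9.95% of all models rose and 8.97% fell. By limma on log2(TPM + 1) none of the 18 was called in this step or in the next. Of all 19584 models limma called 447 in this step and 3 in the next. The largest rises were those of cadps2 (0.48 ± 0.11, adjusted p = 0.012), which acts in dense-core vesicle release, chga (0.45 ± 0.06, adjusted p = 0.00079), the chromogranin A gene of the vesicle core, and qpct (0.43 ± 0.08, adjusted p = 0.0027). The qpct enzyme forms the pyroglutamate at the start of peptides such as thyrotropin-releasing hormone. The cadps2 call ended without NF56 replicate 1 (0.38) or 2 (0.44).

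At NF66 against NF62, pcsk1 (0.45 ± 0.07, adjusted p = 0.011) and pam (0.45 ± 0.05, adjusted p = 0.0039) rose and no gene of that list fell (median 0.12, all models 0.002), where 1.36% of all models rose and 1.79% fell. The pcsk1 call ended without NF62 replicate 3 (0.41, adjusted p = 0.059). At NF66 against NF50, 13 of the 18 rose and 2 fell (median 0.38, all models 0.021), where 17.9% of all models rose and 18.8% fell. The largest of these were dpp4 (1.85 ± 0.55, adjusted p = 0.021), the gene of a peptidase that cleaves neuropeptide Y, qpct (0.66 ± 0.08, adjusted p = 5.9e-05) and scg2 (0.64 ± 0.06, adjusted p = 1.3e-05), the secretogranin II gene. The dpp4 level was very low, with means of 0.585 CPM at NF66 and 0.157 CPM at NF50, and its call ended without NF50 replicate 1 (1.62) or 4 (1.62) or NF66 replicate 3 (1.41), or both ends of the within-stage axis (1.41). The scg2 level averaged 1018 CPM at NF66 and 654 CPM at NF50. Relative to the summed neuron markers, 8 genes of the list were called over the whole span in place of 15. With that scaling 9042 of all 19584 models were called, 1464 higher and 7578 lower, with a median of -0.28.

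Of 45 other neuropeptide precursor genes on a list, 18 matched a named model and 16 were usable and tested, since rln3 and pyy share a model with another gene. In the step to NF56, where 14.5% of all models were called, none of the 16 was called by edgeR, with 1 at an unadjusted p below 0.05 and 1 called by DESeq2 (median log2 fold change -0.03). Of all 19584 models DESeq2 called 3490 in that step. At NF62 against NF56, 8 rose and none fell (median 0.35), where 9.95% of all models rose and 8.97% fell. They were led by gnrh1 (1.77 ± 0.31, adjusted p = 0.0025), the gonadotropin-releasing hormone gene, ucn3 (1.13 ± 0.28, adjusted p = 0.016), a urocortin gene, and adcyap1 (0.70 ± 0.11, adjusted p = 0.0016), the gene of the peptide PACAP. Of these adcyap1 was an abundant transcript, with stage means of 402, 425, 691 and 812 CPM from NF50 to NF66, whereas gnrh1 averaged 0.629, 0.691, 2.38 and 3.19 CPM. The count of 8 was 3 without NF56 replicate 1, 5 without NF56 replicate 3, 4 without NF62 replicate 1 and 4 without NF62 replicate 2. Of all models 2551, 2878, 2476 and 3215 were called in these fits, in place of 3705. Limma on log2(TPM + 1) called 1 of the 16, and 447 of all models. The ucn3 call ended without NF56 replicate 1 (1.09), NF56 replicate 2 (0.93) or NF62 replicate 1 (0.94).

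In the last step, NF66 against NF62, penk (0.35 ± 0.06, adjusted p = 0.017) and pnoc (0.29 ± 0.06, adjusted p = 0.038), both opioid precursor genes, rose, and none of the 16 fell (median 0.30), where 1.36% of all models rose and 1.79% fell. The count of 2 was 0 to 4 with a library left out and differed in 10 of the 12 omissions, and DESeq2 called 5 and limma on log2(TPM + 1) 0. Of all models 113 to 561 were called with a library left out, in place of 617. DESeq2 called 1366 of all models and limma 3. The penk level was 170, 186 and 166 CPM in the NF66 libraries, against 142, 138 and 129 CPM in the NF62 libraries. Each of these calls ended without some single library, penk without NF62 replicate 3 (0.31) or NF66 replicate 2 (0.30), and pnoc without any 1 of 9 libraries at 0.27 to 0.31. At NF66 against NF50, 12 rose and 1 fell (median 0.71), where 17.9% of all models rose and 18.8% fell. The largest changes were those of gnrh1 (2.33 ± 0.31, adjusted p = 0.00014), oxt as given above, and pomc. The pomc gene, expressed in arcuate neurons and far more strongly in the pituitary, fell (-1.24 ± 0.31, adjusted p = 0.0089). It was at 17.3, 37.1 and 53.3 CPM in the NF66 libraries, against 88.3, 99.3 and 67.0 CPM in the NF50 libraries. The gene is itself on the pituitary marker list, where it had the highest mean at NF50 (84.9 CPM) and at NF66 (35.9 CPM). Another gene of that list, the growth hormone gene gh1, averaged 4.88 CPM at NF66 and 46.5 CPM at NF50. Of the 5 pituitary markers tested, 4 fell in this comparison, pomc among them, and none rose. The prolactin gene prl of that list did not follow pomc, with means of 3.05 CPM at NF50, 7.58 CPM at NF62 and 3.34 CPM at NF66. The part of pituitary tissue in the pomc result was not tested.

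**Figure D5:**
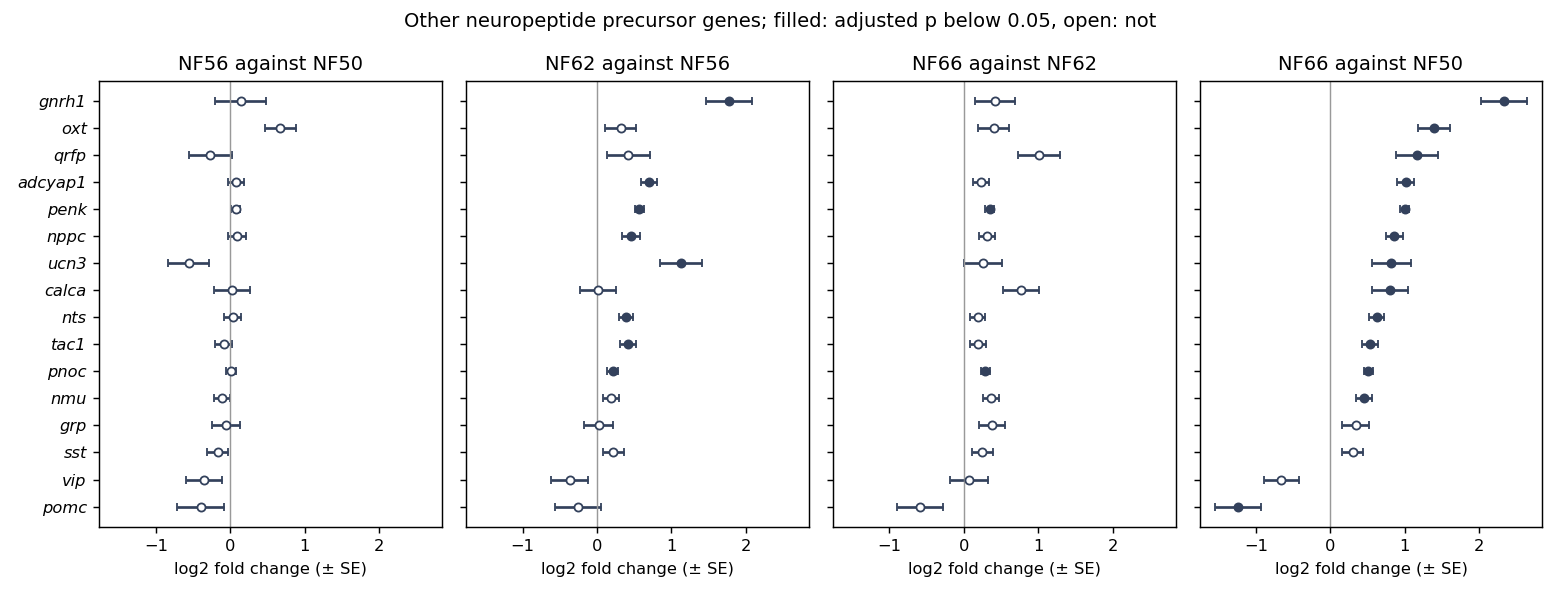
Log2 fold change (horizontal axis, with SE as bars) of the 16 other neuropeptide precursor genes tested, in 4 comparisons of stages, ordered by their value at NF66 against NF50. Filled points had an adjusted p below 0.05 by edgeR and open points did not. No point is filled at NF56 against NF50, 8 are filled at NF62 against NF56, 2 at NF66 against NF62, and 13 at NF66 against NF50, where pomc is the filled point below 0.

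The receptors of vasotocin, thyrotropin-releasing hormone, neuropeptide Y and cholecystokinin were taken from a list of 16 genes, of which 10 were tested. None was called in any of the 3 successive steps by edgeR, where 14.5%, 18.9% and 3.15% of all models were called. At an unadjusted p below 0.05 there were 2 at NF56 against NF50, 1 at NF62 against NF56 and 0 at NF66 against NF62, and DESeq2 called 1, 1 and 0. Of all 19584 models DESeq2 called 3490, 4217 and 1366 in these steps. At NF66 against NF50, 2 rose and none fell (median 0.64), where 36.7% of all models were called, and the count was 0 without NF66 replicate 3 and 4 without NF62 replicate 2 or NF66 replicate 2. They were avpr2.2, a vasotocin receptor gene (2.34 ± 0.69, adjusted p = 0.02), and cckar, a cholecystokinin receptor gene (1.24 ± 0.38, adjusted p = 0.023). Both were at low levels. The avpr2.2 gene was at 0.554, 0.524 and 0.776 CPM in the NF66 libraries, against 0.149, 0.195 and 0 CPM in the NF50 libraries. The cckar gene was at 2.08, 0.786 and 1.92 CPM in the NF66 libraries, against 0.795, 0.702 and 0.538 CPM in the NF50 libraries. Without both ends of the within-stage axis neither passed (avpr2.2 at 2.12 with an adjusted p of 0.067, cckar at 1.08 with an adjusted p of 0.083). The avpr2.2 call ended without NF66 replicate 3 (2.13), and the cckar call without NF50 replicate 3 (1.25) or 4 (1.11) or NF66 replicate 1 (1.02) or 3 (1.08).

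Transcription factor genes that specify neurons of the hypothalamus and preoptic area were followed as a list, with 25 of 26 tested. Between NF56 and NF50, lhx9 rose (0.36 ± 0.09, adjusted p = 0.024) and foxb1 fell (-0.56 ± 0.11, adjusted p = 0.0078), where 14.5% of all models were called, and the median of the list was -0.06. The lhx9 gene is also among the thalamus markers, whose sum was highest at NF56. The lhx9 call ended without any 1 of NF50 replicates 1, 3 or 4 or NF56 replicates 1 or 3, at 0.33 to 0.40. On log2(TPM + 1) values without TMM factors the change of foxb1 was -0.17. At NF62 against NF56 none rose, and dbx1 (-2.07 ± 0.40, adjusted p = 0.0043) and pou3f2 (-0.74 ± 0.10, adjusted p = 0.00048) fell, where 18.9% of all models were called, and the count of 2 was 5 without NF62 replicate 2. The pou3f2 gene, a POU-domain factor needed in mice for neurons that make vasopressin, oxytocin and corticotropin-releasing hormone, was at 46.5, 42.2 and 37.1 CPM in the NF66 libraries, against 88.5, 88.7 and 89.1 CPM in the NF50 libraries. These libraries did not overlap, nor did those of 46.5% of all models. The fall of pou3f2 over the whole span was -1.08 ± 0.10 (adjusted p = 9.6e-06 by edgeR). Its direction was opposite to that of avp over the same libraries, where 18.8% of all models fell. A link of pou3f2 to avp was not tested. In the last step, where 3.15% of all models were called, no gene of the list was called by edgeR or DESeq2, with 1 at an unadjusted p below 0.05. At NF66 against NF50, 1 rose and 6 fell (median 0.02), where 36.7% of all models were called. The gene that rose was lhx6 (2.42 ± 0.60, adjusted p = 0.0086), and dbx1 had the largest fall (-3.14 ± 0.41, adjusted p = 0.00013). The lhx6 level was 7.76, 10.9 and 29 CPM in the NF66 libraries, against 2.88, 3.2 and 2.88 CPM in the NF50 libraries.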

How the data were processed

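Expected counts per gene model were made by the authors with RSEM and deposited as a matrix and in a table per library, per the file headers. The library tables also hold TPM, deposited by the authors and treated here as a score, since a model with several annotations repeats its line (35241 lines for 33875 models). Each model was taken once. Per the submitters' processing notes RSEM, Bowtie, cutadapt, DESeq2 and CASAVA 1.8.2 were used, in roles that are not stated. The sources used here give neither build nor annotation, and no coordinates are printed. Gene names came from the deposited tables, plus 54 annotation lines named from the RefSeq table of assembly UCB_Xtro_10.0, and 13800 models had a name. Genes without a named model, such as crh, were not analysed here.

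All expected counts were rounded, 53.7% of them not being whole. filterByExpr of edgeR 4.0.16 (R 4.3.3), with 10 as the minimum count and 15 as the minimum total, kept 19584 models that hold 99.93% of the counts. With TMM factors, stage means were estimated from the 12 libraries together, and comparisons used quasi-likelihood F tests adjusted over all models (Benjamini-Hochberg). The biological coefficient of variation was 18.3%. The procedure was tested on simulated data with a lower spread among libraries, no within-stage axis and larger changes than those of trh and npy. That test therefore does not bear on calls of small changes. No libraries of a stage agreed within sampling noise (chi-square per degree of freedom 3.81 to 62.39). Depth of 12046529 to 31029733 counts per library sets the precision, and cartpt rests on the fewest.

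The 5 genes, the gene lists and the tests were chosen with earlier results of these data known. The 5 genes are reported whatever their values. Of each list, up to 3 genes called in a comparison are named, those with the largest absolute log2 fold change, and for each of the 5 genes the 3 with the highest Pearson correlation. A few further genes (oxt at NF56, otp, gh1) were picked after their values were seen, and a marker on the lists is not reported here. Alternatives were RLE factors, DESeq2 1.42.0, limma 3.58.1 on log2(TPM + 1), no filter, a stricter filter (50 counts in 3 libraries), only the stages compared, the replicate number as a block, models of a name summed, and leaving out each library. Leaving out both ends of the within-stage axis, and scaling to summed neuron markers, were added after the data were seen.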

Additional observations from a re-analysis of the deposited data

How the results depend on the processing

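RLE factors and the stricter filter changed no direction or call of the 5 genes. Summing the models of a name could change nothing, since each of the 5 names sat on 1 model. By limma on log2(TPM + 1), where the median of all models was 0.32 at NF56 against NF50, the values there reversed to 0.07 (trh), 0.24 (npy) and 0.06 (cck). By the same method these missed the threshold: trh 0.39 and npy 0.37 at NF66 against NF62, cartpt -0.52 at NF56 against NF50, -0.80 at NF62 against NF56 and -0.69 at NF66 against NF50, and the ranges among stages of trh (0.55) and npy (0.66). It called 455, 447 and 3 models in the 3 successive steps, 4566 over the whole span and 3381 for any difference.

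At NF66 against NF62, trh (0.39) and npy (0.37) missed the threshold with only the stages compared, where 4 models were called, and trh (0.39) did without a filter, where 363 were. DESeq2 called 1366 models and cartpt (0.72) there. Without both ends of the within-stage axis, avp was at 0.27, trh at 0.33 and npy at 0.34, none past the threshold, among 1112 called. Scaled to neuron markers, avp was at 0.05 and cartpt passed at 0.80 there. That scaling reversed trh at NF66 against NF50 (-0.09) and npy at NF62 against NF56 (-0.02). It gave npy -0.42, past the threshold, among 7224 called at NF56 against NF50, and at NF66 against NF50 npy (0.02) and cck (0.16) missed the threshold. The scaling to neuron markers applies the same factor to all models of a library. It therefore moves all models of a comparison by nearly the same amount. At NF56 against NF50 avp went from 1.16 to 0.89 and npy from -0.14 to -0.42. With this scaling the median of all models was -0.275 at NF56 against NF50 and -0.118 at NF62 against NF56. It was 0.084 at NF66 against NF62 and -0.28 at NF66 against NF50. In the main fit these medians were -0.002, -0.008, 0.002 and 0.021. The cause of the shifts under the other settings was not tested.

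With each library left out in turn, avp at NF66 against NF62 was -0.37 to 0.12. At NF56 against NF50, trh was -0.38 to -0.26, cck -0.36 to -0.27 and cartpt -1.0 to -0.83, with 1606 to 3059 models called. At NF66 against NF62, trh was 0.32 to 0.46, npy 0.31 to 0.44 and cartpt 0.49 to 0.93, with 113 to 561 called, in place of 617. At NF62 against NF56, cartpt was -0.92 to -0.72.

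The labels do not pair the libraries by replicate number. Of 15 same-numbered pairs, 9 had a correlation of deviations over 0.1 (-0.181 to 0.638). Pairs numbered 2 were at 0.523 to 0.638 and those numbered 3 at 0.447 to 0.591, whereas those numbered 1 were at -0.181 to 0.091. Of 11 libraries with a same-numbered partner, 7 correlated best with their own number. With a replicate block the calls of the 5 genes did not change, and 5436, 5900 and 2010 models were called in the 3 successive steps, in place of 2834, 3705 and 617. The counts behind cartpt (129 to 535 per library) and the receptors below 1 CPM limit how small a change can be called.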
